A study of Mus musculus with 12 samples.

Results

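The genes described here make, store and burn fatty acids. They are 39 genes of fatty acid synthesis, storage and oxidation, chosen by symbol from the 55536 genes of a count table of mouse pancreatic islet RNA, and all 39 were among the 19800 genes kept for testing. Islets were sequenced in 12 libraries, 3 in each of 4 groups: islets labelled PTPN2 -/- (called Ptpn2-bKO in the protocols, and bKO-labelled below) with cytokines and untreated, and control islets (PTPN2 fl/fl by genotype label, PTPN2 +/+ by title) with cytokines and untreated. Treated islets were kept for 24 h with 3 cytokines: IL-1beta, TNF-alpha and IFN-gamma. All mice were 16 weeks old on a mixed background of C57BL/6J. The 6 libraries of each genotype came from 3 mice, so some libraries share a mouse, but the labels do not say which, nor which Cre line drives the deletion. The tests treat the libraries as separate, so their p-values measure the spread between these libraries. Totals were 47064061 to 57223340 counts per library in cytokine-treated bKO-labelled islets, 59411699 to 62955944 in untreated bKO-labelled islets, 52930884 to 107515565 in cytokine-treated controls and 54460375 to 77582270 in untreated controls.

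The beta cell markers fit the labelled tissue, with Ins1 and Ins2 together at 8.15% to 14.9% of counts in every library. Ptpn2 encodes a phosphatase that switches off JAK and STAT signalling. Its RNA was 111, 84.2 and 107 CPM (counts relative to the TMM-scaled library total) in cytokine-treated bKO-labelled islets, against 88.9, 90.4 and 78.3 CPM in cytokine-treated controls. Untreated bKO-labelled islets had 36.7, 33.8 and 35.5 CPM, against 30.3, 31.5 and 31.4 CPM in untreated controls. Ptpn2 RNA was therefore not lower under the bKO label (log2 difference 0.23, SE 0.097, edgeR adjusted p = 0.26 with cytokines; 0.19, SE 0.098, adjusted p = 0.989 untreated). The labels do not say which part of the gene is deleted, and counts over the whole gene do not check the label.

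As background, acetyl-CoA carboxylase makes malonyl-CoA and fatty acid synthase joins it into palmitate, which elongases and desaturases lengthen and unsaturate. Acyl-CoA synthetases activate fatty acids, glycerolipid enzymes build them into triglyceride for lipid droplets, and lipases release them again. The carnitine shuttle, which malonyl-CoA inhibits at its first step, carries fatty acids into mitochondria for beta oxidation. In beta cells this traffic is tied to fuel sensing: fatty acids potentiate insulin secretion, and long exposure to saturated ones harms the cells.

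The promoters of 6 genes on which the results turn are shown first: Elovl7 and Plin2, among the largest increases with cytokines; Hadh, Ehhadh and Fasn, among the decreases; and Acacb, called in opposite directions in the 2 genotypes. Each is the RefSeq window on GRCm38.p6 from 250 bases before to 50 after an annotated start, on the gene's own strand. The windows lie at chr13:108214154-108214453 (plus strand), chr4:86670010-86670309 (minus), chr3:131272052-131272351 (minus), chr16:21787785-21788084 (minus), chr11:120824498-120824797 (minus) and chr5:114165268-114165567 (plus). The Acacb window lies inside the longer GENCODE gene, downstream of that gene's outermost start. Capitals mark matches, on either strand, to a sterol response element (TCACNCCAC), an E-box (CACGTG), a STAT site (TTCNNNGAA) or a CCAAT box (CCAAT, reading ATTGG on the other strand); in Fasn a forward and a reverse CCAAT overlap in one run.
Elovl7: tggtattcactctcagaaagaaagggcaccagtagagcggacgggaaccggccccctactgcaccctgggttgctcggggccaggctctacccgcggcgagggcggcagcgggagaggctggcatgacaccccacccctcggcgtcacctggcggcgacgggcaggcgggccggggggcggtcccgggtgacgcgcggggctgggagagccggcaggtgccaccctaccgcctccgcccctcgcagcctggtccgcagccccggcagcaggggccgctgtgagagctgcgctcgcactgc
Plin2: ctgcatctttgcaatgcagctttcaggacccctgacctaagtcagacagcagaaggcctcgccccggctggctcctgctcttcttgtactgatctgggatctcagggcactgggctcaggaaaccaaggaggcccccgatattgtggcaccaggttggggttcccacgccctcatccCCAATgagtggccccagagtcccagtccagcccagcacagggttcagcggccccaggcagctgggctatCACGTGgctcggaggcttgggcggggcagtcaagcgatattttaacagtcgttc
Hadh: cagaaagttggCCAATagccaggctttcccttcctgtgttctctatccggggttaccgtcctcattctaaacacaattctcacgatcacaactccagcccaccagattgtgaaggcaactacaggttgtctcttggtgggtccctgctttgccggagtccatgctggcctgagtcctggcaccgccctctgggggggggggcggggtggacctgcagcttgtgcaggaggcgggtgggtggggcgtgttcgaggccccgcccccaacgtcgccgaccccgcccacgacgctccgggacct
Ehhadh: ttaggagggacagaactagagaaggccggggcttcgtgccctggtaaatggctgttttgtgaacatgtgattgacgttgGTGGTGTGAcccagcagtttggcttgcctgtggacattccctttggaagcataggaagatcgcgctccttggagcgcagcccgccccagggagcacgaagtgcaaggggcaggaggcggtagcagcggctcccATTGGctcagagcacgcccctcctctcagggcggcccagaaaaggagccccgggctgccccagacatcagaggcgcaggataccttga
Fasn: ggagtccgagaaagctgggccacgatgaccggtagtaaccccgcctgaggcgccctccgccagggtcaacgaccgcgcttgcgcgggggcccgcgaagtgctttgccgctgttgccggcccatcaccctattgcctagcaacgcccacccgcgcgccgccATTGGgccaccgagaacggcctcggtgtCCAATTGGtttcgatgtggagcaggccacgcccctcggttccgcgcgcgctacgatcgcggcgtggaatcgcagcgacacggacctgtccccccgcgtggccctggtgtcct
Acacb: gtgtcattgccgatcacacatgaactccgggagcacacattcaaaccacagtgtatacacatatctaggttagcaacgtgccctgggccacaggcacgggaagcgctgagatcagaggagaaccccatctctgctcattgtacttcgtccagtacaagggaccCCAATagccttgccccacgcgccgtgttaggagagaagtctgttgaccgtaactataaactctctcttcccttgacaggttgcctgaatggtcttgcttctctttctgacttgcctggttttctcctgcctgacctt

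Of the 39 genes, 34 had a promoter in the RefSeq table, and Scd1, Scd2, Fads1, Dgat1 and Dgat2 are named only. These 34 genes have 43 promoters in the table. Each count of genes below is also the count of these promoters, so the shares of all promoters are to be read against 43. The sterol response element was found in 2 of these 34 genes (Acsl1 and Ehhadh) and in 1.24% of all 32851 promoters in the table. The E-box was found in 5 (Elovl4, Elovl5, Lipe, Lpin2 and Plin2) and in 7.15% of all promoters. The STAT letters were found in 5 (Agpat1, Cpt2, Hadha, Hadhb and Lipe), none of them shown above, and in 8.3% of all promoters. The CCAAT box was found in 14, among them Fasn, Acacb, Hadh, Ehhadh and Plin2, and in 37.4% of all promoters. A match describes letters and shows no binding.

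In untreated islets the genes spanned a wide range of abundance. Per kilobase of exon, the highest levels were those of Hadh, a short-chain hydroxyacyl-CoA dehydrogenase of mitochondria whose loss in people causes excess insulin release (46.9 ± 4.30 CPM per kb in bKO-labelled islets and 55.8 ± 6.92 in controls; SD, n = 3), and of Scd2, a stearoyl-CoA desaturase (50.4 ± 4.44 in bKO-labelled islets and 54.3 ± 5.64 in controls). These 2 levels lay within their spread of each other in both genotypes. Elovl5, an elongase of polyunsaturated fatty acids, came next, with 34.7 ± 1.04 CPM per kb in bKO-labelled islets and 36.6 ± 3.34 in controls. Acadl and Agpat1 followed between 27.6 and 31.1 CPM per kb. Lowest were Acacb, the acetyl-CoA carboxylase form at the mitochondrial surface (0.164 ± 0.0376 CPM per kb in bKO-labelled islets and 0.277 ± 0.0519 in controls), and Ppara, the nuclear receptor that switches on fatty acid oxidation genes (0.245 ± 0.111 in bKO-labelled islets and 0.254 ± 0.0662 in controls). Their levels also lay within their spread of each other in both genotypes. With cytokines Acadl stood first in both genotypes, at 67.9 ± 9.54 CPM per kb in bKO-labelled islets and 55.4 ± 2.22 in controls, and Hadh was no longer among the first 5. In treated bKO-labelled islets Scd2, at 55.2 ± 46.0 CPM per kb, lay within its spread of Acadl.

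**Figure D1:**
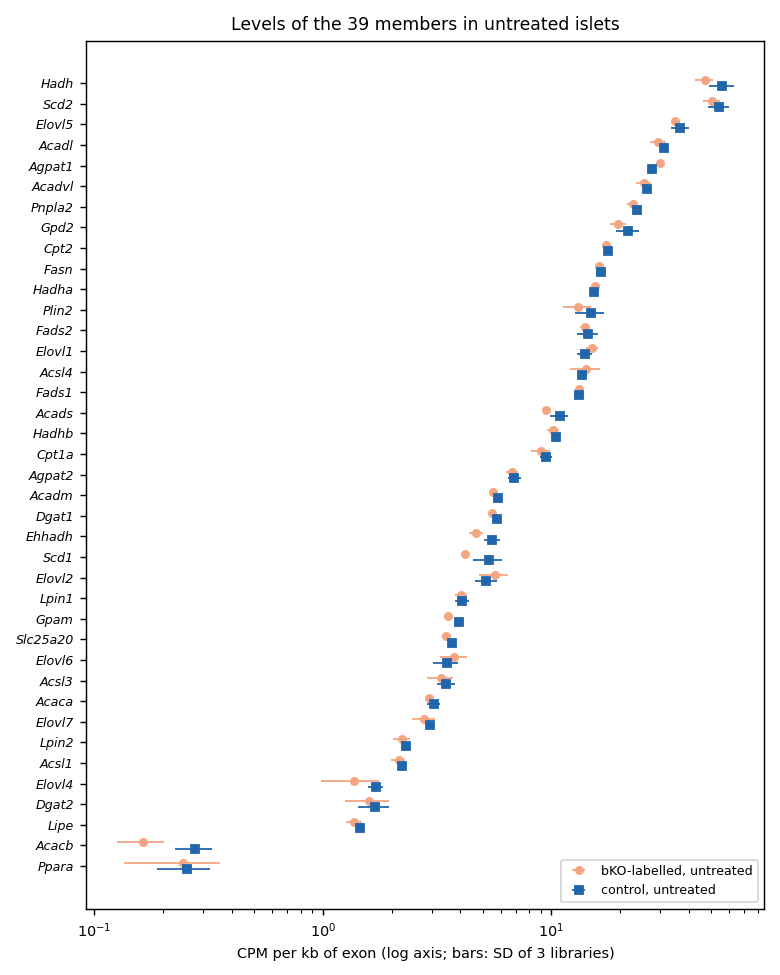
Level of each of the 39 genes in untreated islets, in CPM per kilobase of exon on a log axis; symbols are means of 3 libraries (circles, bKO-labelled; squares, control) and bars are SD. Levels ran from 0.164 (Acacb) to 50.4 (Scd2) in bKO-labelled islets and from 0.254 (Ppara) to 55.8 (Hadh) in controls, and Acacb shows the widest ratio between genotypes.

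With cytokines, genes of triglyceride assembly and storage, acyl-CoA activation and mitochondrial import were mostly higher, while Fasn, Elovl2, Gpd2, Gpam, Hadh and Ehhadh were lower in both genotypes. In bKO-labelled islets 18 of the 39 genes rose, 8 fell and 13 were not called at an edgeR adjusted p under 0.05, where 62.4% of all genes tested were called (28.8% higher and 33.6% lower). In control islets 18 rose, 13 fell and 8 were not called, where 60.6% of all genes were called (26.8% higher and 33.9% lower). The share of the 39 genes called was thus near that of all genes in bKO-labelled islets, with more of them higher (46.2%) and fewer lower (20.5%). In controls the share called was above that of all genes. There 46.2% were higher, and the 33.3% that were lower were near the share of all genes. At 2-fold or more, 6 rose and 4 fell in bKO-labelled islets (29.1% of all genes passed this), and 4 rose and 5 fell in controls (27.4% of all genes). Their median log2 fold change was 0.23 in bKO-labelled islets (all genes -0.061) and 0.099 in controls (all genes -0.10). The balance of directions depends on scaling: with library totals alone, which moves the median of all genes by -0.23 in either genotype, 13 rose and 13 fell in bKO-labelled islets, and 12 rose and 16 fell in controls. With that scaling the increases of Acacb, Elovl1, Agpat1, Acadvl and Hadhb in bKO-labelled islets (adjusted p 0.0583 to 0.944) and of Elovl1, Acsl1, Agpat1, Agpat2, Lpin1 and Hadhb in controls (0.0675 to 0.423) were no longer called. Fads1, Elovl5, Elovl6, Cpt2 and Ppara were called lower with library totals alone in bKO-labelled islets (edgeR adjusted p 0.00122 to 0.0322). In controls this held for Scd1, Elovl6 and Ppara (0.00748 to 0.0305). Without replicate 2 of the cytokine-treated bKO-labelled islets, 20 rose and 13 fell in bKO-labelled islets, so that 1 library decides how many fell.

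The responses pointed the same way in most genes. In both genotypes 17 genes rose, 8 fell and 8 were not called, whereas 51% of all genes were called in the same direction in both. Another 5 were called in controls alone, and no test of a difference between the responses was passed by any of them. Acacb was called in opposite directions, as were 0.0909% of all genes. The groups did not overlap for 26 of the 39 genes in bKO-labelled islets (66.7%, against 65% of all genes) and for 36 in controls (92.3%, against 70.5%).

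Markers of most islet cell types moved with cytokines too. Of 10 beta cell markers 7 fell in each genotype (Mafa, Ucn3, Pdx1, G6pc2, Slc2a2, Slc30a8 and Nkx6-1), and Ins1, Ins2 and Iapp were not called; the median log2 fold change was -2.29 in bKO-labelled islets and -2.01 in controls. All 5 alpha cell and all 6 endothelial markers fell in both genotypes (medians -1.65 and -1.63 in bKO-labelled islets, -1.49 and -2.03 in controls). Of 10 acinar markers, 4 fell in bKO-labelled islets (median -0.90) and 10 in controls (median -2.30). The 7 macrophage markers rose in both (medians 1.5 and 1.38). Of 7 stellate cell markers 5 rose in bKO-labelled islets and 1 in controls. Without replicate 2 of the treated bKO-labelled islets, 2 stellate cell markers rose in either genotype. In bulk RNA, fewer cells of a type and less RNA per cell cannot be told apart, and the part of cell composition in the responses below was not tested.

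**Figure D2:**
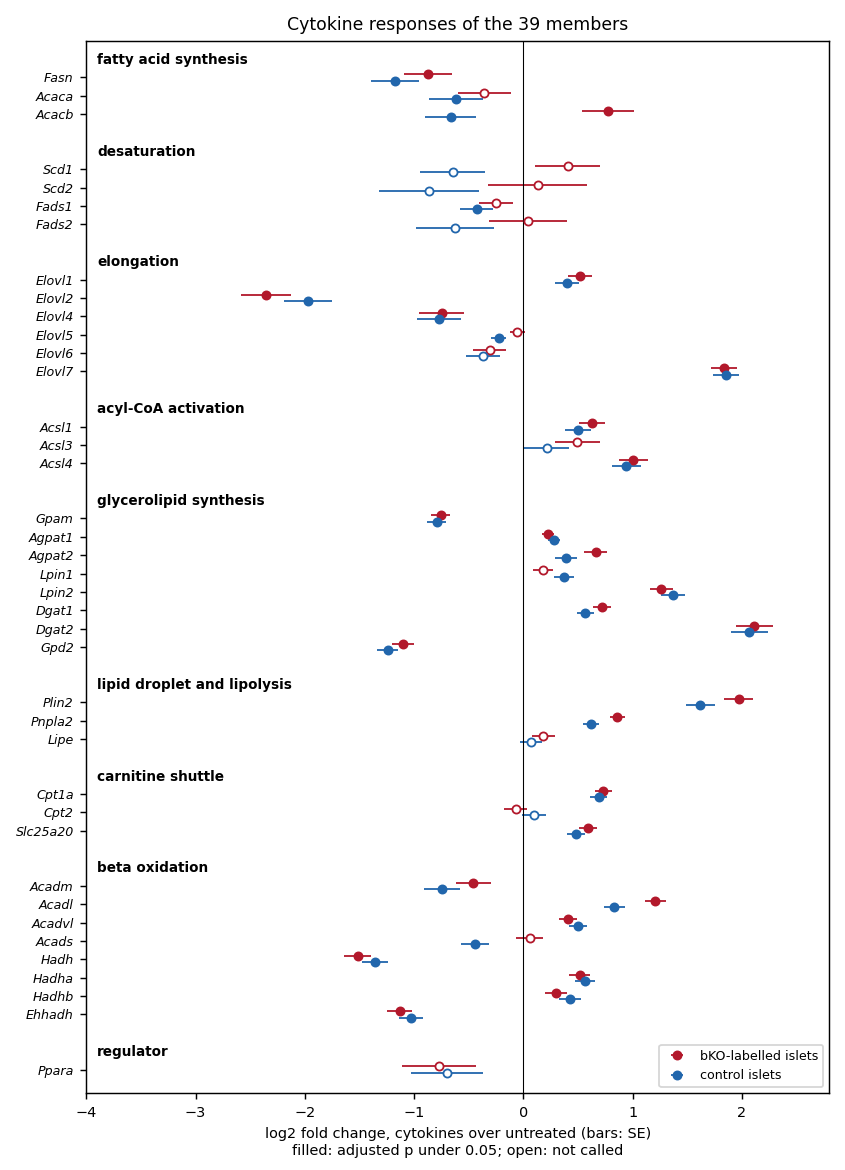
Log2 fold change with cytokines for the 39 genes in 9 roles, red for bKO-labelled and blue for control islets, with bars of SE; filled symbols passed an edgeR adjusted p under 0.05. Dgat2, Plin2 and Elovl7 lie farthest right and Elovl2 and Hadh farthest left in both genotypes, and Acacb is the gene with filled symbols on both sides of 0.

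Fatty acid synthesis was represented by 3 genes. Fasn, the fatty acid synthase, had 73.3, 141 and 74.6 CPM in cytokine-treated bKO-labelled islets, against 178, 183 and 169.9 CPM in untreated bKO-labelled islets. Cytokine-treated controls had 81.7, 64.6 and 95.0 CPM, against 189, 173 and 182 CPM in untreated controls. All treated libraries were below all untreated ones, with replicate 2 of the treated bKO-labelled islets well above the other treated libraries. Fasn fell in both, with a log2 fold change of -0.87 (SE 0.22, edgeR adjusted p = 0.00464) in bKO-labelled islets and -1.17 (SE 0.22, adjusted p = 0.000736) in controls. Acaca, the cytosolic acetyl-CoA carboxylase, fell in controls (log2 -0.62, adjusted p = 0.0466), and that call was lost without any 1 of 8 libraries (each untreated library of either genotype, and replicates 1 and 2 of the treated controls; adjusted p 0.0597 to 0.161), with DESeq2 size factors (0.0644) and with a replicate block (0.0767). It was at -0.36 (adjusted p = 0.222) in bKO-labelled islets.

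Acacb makes malonyl-CoA, which restrains the carnitine shuttle, as does Acaca. Acacb was the scarcer of these in untreated islets. It had 0.164 CPM per kb of exon against 2.93 for Acaca in bKO-labelled islets, and 0.277 against 3.06 in controls. Its RNA was scarce in every library: 2.16, 3.05 and 2.86 CPM in cytokine-treated bKO-labelled islets, against 1.82, 1.75 and 1.16 CPM in untreated bKO-labelled islets. In controls it was 1.28, 1.87 and 1.89 CPM with cytokines, against 3.24, 2.35 and 2.41 CPM untreated. The treated libraries were all above the untreated ones under the bKO label and all below them in controls. The edgeR log2 fold change was 0.77 (SE 0.24, adjusted p = 0.0134) in bKO-labelled islets and -0.67 (SE 0.23, adjusted p = 0.0269) in controls. Leaving out single libraries ended either call: without replicate 3 of the untreated bKO-labelled islets the adjusted p in bKO-labelled islets was 0.0575, and without replicate 1 of the treated or of the untreated controls the adjusted p in controls was 0.102 and 0.112. The call in controls was also lost with a replicate block within genotype (adjusted p = 0.0721).

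None of Scd1, Scd2, Fads1 and Fads2 was called in bKO-labelled islets, and in controls Fads1, the delta-5 desaturase, fell (log2 -0.43, SE 0.15, edgeR adjusted p = 0.0299). That call was lost without replicate 2 of the treated controls (adjusted p = 0.117) or replicates 2 or 3 of the untreated controls (0.0604 and 0.0838), with DESeq2 size factors (0.0509) and with a replicate block (0.0536). Scd2, shown here after its values were seen, had 136, 591 and 178 CPM in cytokine-treated bKO-labelled islets, against 248, 294 and 285 CPM in untreated bKO-labelled islets. Cytokine-treated controls had 187, 93.1 and 209 CPM, against 300.1, 264 and 326 CPM in untreated controls. Replicate 2 was the highest of all 12 libraries among treated bKO-labelled islets and the lowest of all 12 among treated controls, and in both genotypes the other treated libraries were below every untreated one. Fads2, the delta-6 desaturase, ran in the same way, with 25.1, 81.7 and 35.1 CPM in cytokine-treated bKO-labelled islets, against 48.6, 45.1 and 44.6 CPM in untreated bKO-labelled islets. Treated controls had 35.7, 19.5 and 37.9 CPM, against 45.6, 44.2 and 53.7 CPM in untreated controls. Replicate 2 was again the highest and the lowest of the 12 libraries.

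In that library, replicate 2 of the cytokine-treated bKO-labelled islets, 7 of the 39 genes were over 1.5 times the mean of the other 2 libraries of its group: Scd2 (3.76 times), Fads2 (2.71), Scd1 (2.45), Acaca (2.05), Fasn (1.91), Acsl3 (1.74) and Fads1 (1.52). Elovl2 was at 0.594 times that mean. The share of all genes over 1.5 times was not counted. All genes tested also varied most in this library. Its median absolute log2 deviation from the group mean was 0.158 over all genes tested and 0.191 over the 39. Replicate 2 of the treated controls was low in the same desaturases, with Scd2 at 0.47 times, Fads2 at 0.531 times and Scd1 at 0.744 times the mean of its group's other libraries. In replicate 2 of the treated bKO-labelled islets some marker sums stood apart and others did not. The macrophage, endothelial and Schwann cell sums lay between those of the other 2 libraries of its group. The alpha, delta, PP, acinar and adipocyte sums were the lowest of that group. Its ductal and T and B cell sums were the highest. The 7 stellate cell markers, such as Dcn and Col1a1, summed to 3279, 8165 and 3082 CPM in the 3 treated bKO-labelled libraries and to 4316, 1500 and 3148 CPM in the 3 treated controls. The 10 beta cell markers summed to 162500, 90120 and 147700 CPM in treated bKO-labelled islets and to 162300, 177700 and 144700 CPM in treated controls, and Ins1 and Ins2 took 8.15% of counts in replicate 2 of the treated bKO-labelled islets. The part of cell composition in the desaturase values was not tested.

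**Figure D3:**
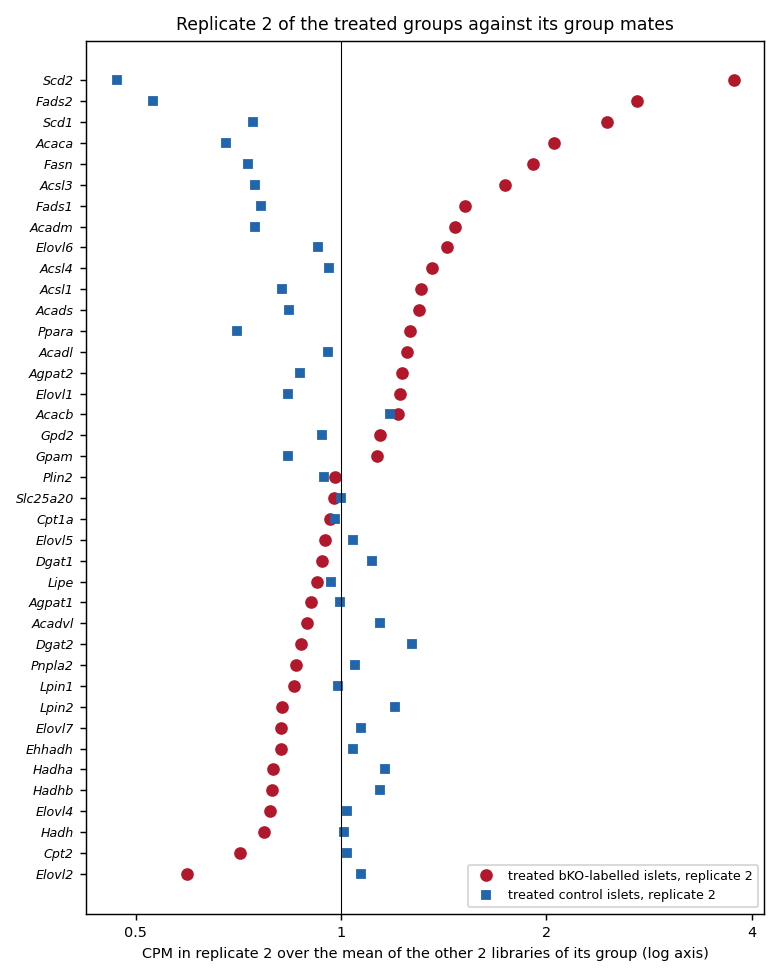
Level of each of the 39 genes in replicate 2 of the 2 cytokine-treated groups, divided by the mean of the other 2 libraries of the same group, on a log axis (circles, bKO-labelled; squares, control). The circles rise to 3.76 for Scd2 where the squares fall to 0.47, and for genes such as Plin2, Slc25a20 and Cpt1a both lie near 1.

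Without replicate 2 of the cytokine-treated bKO-labelled islets, Scd2 (log2 -0.75, edgeR adjusted p = 0.0202), Fads2 (-0.56, adjusted p = 0.0432), Fads1 (-0.42, adjusted p = 0.00229) and Acaca (-0.73, adjusted p = 0.000444) were called lower with cytokines in bKO-labelled islets, and Fasn was at -1.20 (adjusted p = 2.83e-06). Elovl6 (-0.44, adjusted p = 0.00885) was also called lower, and Lpin1 (0.31, adjusted p = 0.0093) and Lipe (0.28, adjusted p = 0.0441) were called higher. Scd1, which makes monounsaturated fatty acids as Scd2 does, was at -0.11 (adjusted p = 0.535); without replicate 1 of the same group it was at 0.67 (adjusted p = 0.0458). Leaving out replicate 2 also changed calls in controls: Scd1 (-0.58, adjusted p = 0.00172), Scd2 (-0.80, adjusted p = 0.00677) and Fads2 (-0.56, adjusted p = 0.0215) were then called lower.

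**Figure D4:**
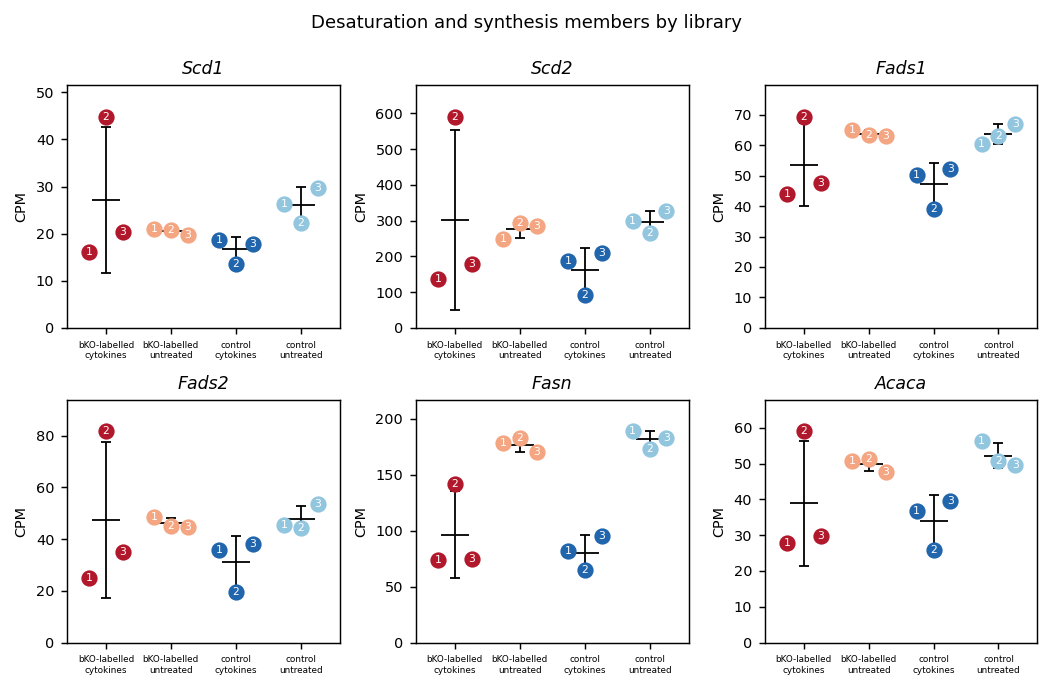
CPM of 4 desaturation and 2 synthesis genes in every library; numbers in the points are replicate numbers, horizontal lines are group means and bars are SD of 3 libraries. Replicate 2 of the cytokine-treated bKO-labelled islets is the highest treated library in all 6 panels, up to 591 CPM for Scd2, and replicate 2 of the treated controls is the lowest of its group.

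Among the 6 elongases, which add carbons to fatty acids by chain length and saturation, some rose and some fell. Elovl7 had 40.8, 34.5 and 43.7 CPM in cytokine-treated bKO-labelled islets, against 10.8, 10.0 and 12.5 CPM in untreated bKO-labelled islets. Controls had 37.4, 44.9 and 46.3 CPM with cytokines, against 12.2, 11.3 and 12.1 CPM untreated. Every treated library was far above every untreated one, and the genotypes overlapped. The log2 fold change was 1.84 (SE 0.12, edgeR adjusted p = 1.67e-07) in bKO-labelled islets and 1.85 (SE 0.12, adjusted p = 1.69e-07) in controls.

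Elovl2, which extends long polyunsaturated fatty acids, showed the largest decrease of the 39 genes. It had 5.88, 3.02 and 4.27 CPM in cytokine-treated bKO-labelled islets, against 18.8, 23.7 and 24.8 CPM in untreated bKO-labelled islets. In controls it had 4.08, 5.47 and 6.16 CPM with cytokines, against 23.1, 19.7 and 18.9 CPM untreated. Treated and untreated libraries were widely separated in both genotypes. Its log2 fold change was -2.36 (SE 0.23, adjusted p = 4.06e-06) in bKO-labelled islets and -1.97 (SE 0.22, adjusted p = 1.51e-05) in controls. Elovl4, for very long chains, also fell in both (-0.75 in bKO-labelled islets and -0.77 in controls), and Elovl1, for long saturated and monounsaturated chains, rose in both (0.51 and 0.40). Elovl5 fell in controls (-0.23, adjusted p = 0.0159) and was at -0.055 (adjusted p = 0.518) in bKO-labelled islets. The Elovl5 call was lost without replicate 2 of the treated bKO-labelled islets, replicate 3 of the treated controls or replicate 1 of the untreated controls (adjusted p 0.0606 to 0.0816), and with DESeq2 size factors, DESeq2 or the compared groups only (0.163, 0.172 and 0.105). Elovl6, for palmitate and shorter saturated chains, was not called (-0.31, adjusted p = 0.0961, in bKO-labelled islets and -0.37, adjusted p = 0.0534, in controls), and was called lower in either genotype without replicate 2 of the treated bKO-labelled islets (adjusted p = 0.00885 and 0.0317). With library totals alone Elovl6 was also called lower in either genotype (edgeR adjusted p = 0.0134 and 0.00748).

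Of the 3 acyl-CoA synthetases, which attach coenzyme A to free fatty acids, Acsl1 and Acsl4 rose in both genotypes. Acsl4, which prefers arachidonic acid, had 138, 188 and 137 CPM in cytokine-treated bKO-labelled islets, against 64.1, 80.2 and 86.5 CPM in untreated bKO-labelled islets. Cytokine-treated controls had 150.0, 138 and 138 CPM, against 71.8, 72.4 and 77.8 CPM in untreated controls. The treated libraries were all above the untreated ones. The log2 fold change of Acsl4 was 1.01 (SE 0.13, edgeR adjusted p = 4.42e-05) in bKO-labelled islets and 0.94 (SE 0.13, adjusted p = 7.85e-05) in controls. Acsl1 rose by 0.63 in bKO-labelled islets and by 0.50 in controls, and Acsl3 was not called (0.49, adjusted p = 0.0551, in bKO-labelled islets and 0.21, adjusted p = 0.391, in controls). Without replicates 1 or 3 of the treated bKO-labelled islets, or replicate 2 of the treated controls, Acsl3 was called higher in bKO-labelled islets (adjusted p 0.023 to 0.0499).

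Glycerolipid synthesis held the largest increase. Dgat2 (chr7:99153658-99182719, GRCm38), which adds the last acyl chain of triglyceride, had 22.8, 19.4 and 21.7 CPM in cytokine-treated bKO-labelled islets, against 6.13, 4.52 and 4.10 CPM in untreated bKO-labelled islets. In controls Dgat2 had 20.7, 25.4 and 19.3 CPM with cytokines, against 4.29, 5.60 and 5.70 CPM untreated. No treated library overlapped an untreated one. The log2 fold change was 2.11 (SE 0.17, edgeR adjusted p = 1.01e-06) in bKO-labelled islets and 2.07 (SE 0.17, adjusted p = 1.3e-06) in controls. Dgat1, the other enzyme of this step, rose by 0.72 in bKO-labelled islets and 0.57 in controls.

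Lpin2 (chr17:71182560-71249817), a phosphatidate phosphatase that yields diacylglycerol, had 73.0, 56.8 and 65.6 CPM in cytokine-treated bKO-labelled islets, against 24.5, 28.9 and 28.0 CPM in untreated bKO-labelled islets. Cytokine-treated controls had 67.8, 82.4 and 69.8 CPM, against 29.7, 27.5 and 28.0 CPM in untreated controls. Again the treated libraries stood clear of the untreated ones. Lpin2 rose by log2 1.26 (SE 0.11, adjusted p = 1.5e-06) in bKO-labelled islets and 1.37 (SE 0.11, adjusted p = 9.02e-07) in controls. Its relative Lpin1 rose in controls (0.37, adjusted p = 0.00382) and was at 0.18 (adjusted p = 0.108) in bKO-labelled islets. The acyltransferases Agpat1 and Agpat2, which make phosphatidate, rose in both genotypes: Agpat1 by 0.23 in bKO-labelled islets and 0.28 in controls, and Agpat2 by 0.66 and 0.39. With library totals alone Agpat1 was at -0.0045 in bKO-labelled islets, and with no filter on low counts its call there was also lost (adjusted p = 0.0558).

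The 2 members that act on glycerol 3-phosphate fell. Gpam adds an acyl chain to it, whereas Gpd2 oxidises it and is only listed here with glycerolipid synthesis. Gpd2 (chr2:57237635-57370719), the mitochondrial glycerol phosphate dehydrogenase, which in beta cells also carries reducing power from glycolysis, had 55.4, 65.2 and 58.8 CPM in cytokine-treated bKO-labelled islets, against 117, 136 and 133 CPM in untreated bKO-labelled islets. Controls had 58.7, 57.4 and 63.7 CPM with cytokines, against 161, 131 and 134 CPM untreated. Every treated library was below every untreated one. The log2 fold change was -1.11 (SE 0.099, edgeR adjusted p = 2.25e-06) in bKO-labelled islets and -1.24 (SE 0.099, adjusted p = 9.97e-07) in controls. Gpam, the mitochondrial acyltransferase that starts glycerolipid synthesis, fell in bKO-labelled islets (-0.76, adjusted p = 1.48e-05) and in controls (-0.79, adjusted p = 1.1e-05).

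Plin2, the perilipin that coats lipid droplets outside fat tissue, had 183, 178 and 179.6 CPM in cytokine-treated bKO-labelled islets, against 53.1, 41.2 and 43.4 CPM in untreated bKO-labelled islets. Cytokine-treated controls had 185, 154 and 142 CPM, against 45.2, 51.2 and 60.4 CPM in untreated controls. The lowest treated library was well above the highest untreated one, and treated bKO-labelled libraries were closer together than treated controls. Plin2 rose by log2 1.97 (SE 0.13, edgeR adjusted p = 2.28e-07) in bKO-labelled islets and 1.62 (SE 0.13, adjusted p = 1.07e-06) in controls. Pnpla2, the lipase that takes the first fatty acid from triglyceride, also rose in both, by 0.86 (SE 0.071) in bKO-labelled islets and 0.62 (SE 0.071) in controls. Lipe, hormone-sensitive lipase, was not called (0.18, adjusted p = 0.142, in bKO-labelled islets and 0.071, adjusted p = 0.569, in controls).

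Fat and immune cells also use storage genes. The 7 adipocyte markers summed to 0.327 to 0.471 CPM in treated bKO-labelled islets, 0.168 to 0.321 in untreated bKO-labelled islets, 0.382 to 0.630 in treated controls and 0.218 to 0.358 in untreated controls; Cfd was at 0 in all 12 libraries and Adipoq averaged at most 0.0239 CPM in any group. The 7 macrophage markers summed to 468 to 603 CPM in treated bKO-labelled islets and 153 to 214 in untreated bKO-labelled islets, and to 450.2 to 553 CPM in treated controls and 160 to 185 in untreated controls. The part of macrophages in the values of Plin2, Acsl1 and the other rising genes was not tested.

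**Figure D5:**
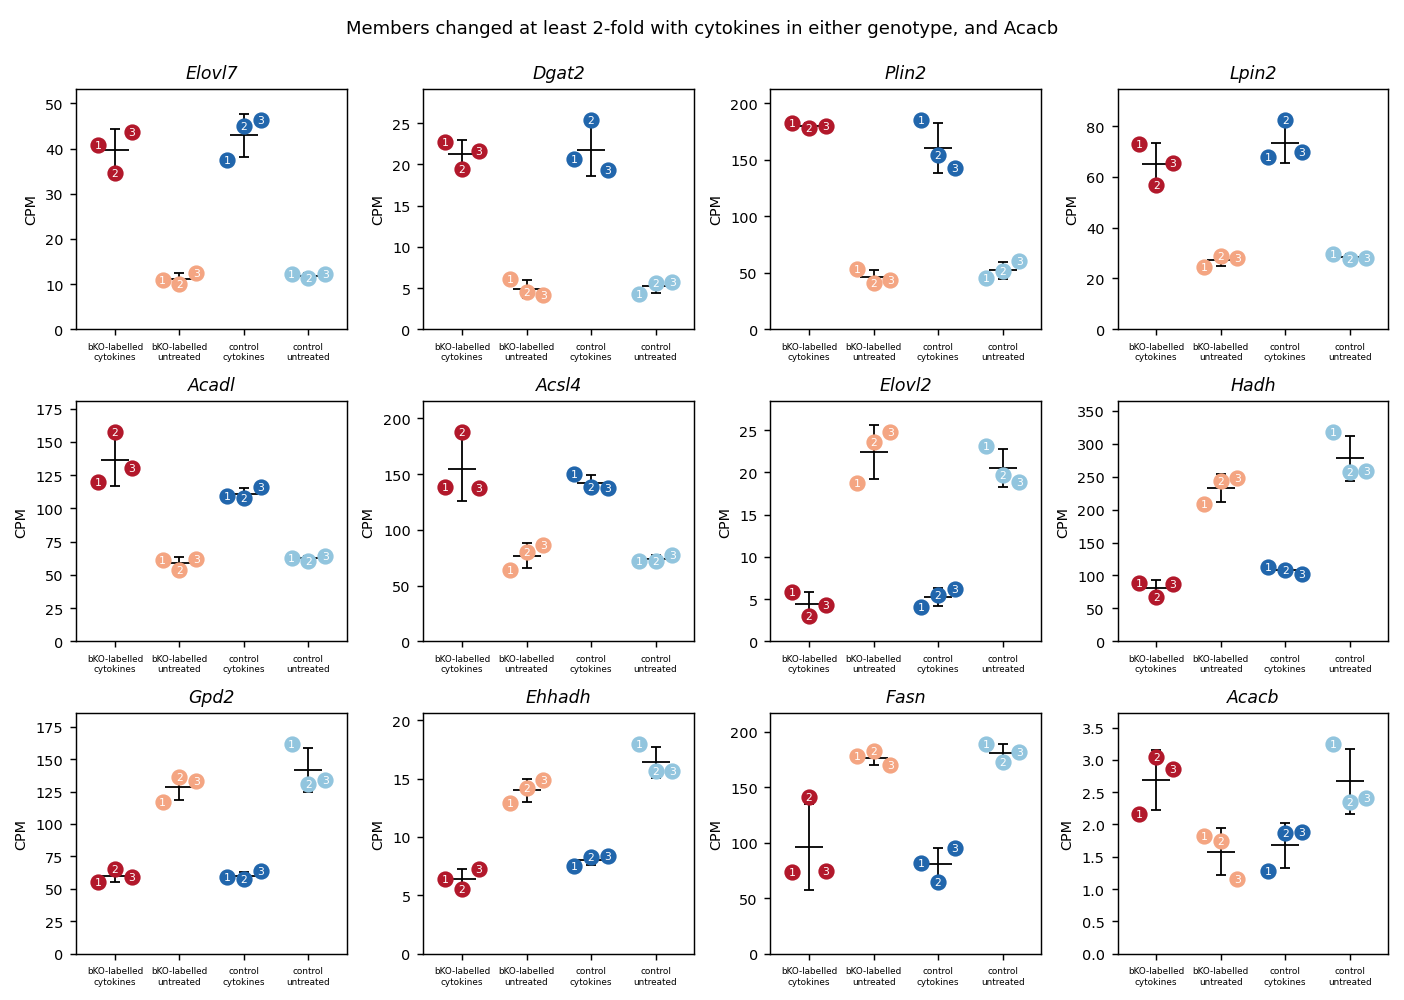
CPM in every library of the 11 genes called at 2-fold or more with cytokines in at least 1 genotype, and of Acacb; numbers in the points are replicate numbers, horizontal lines are group means and bars are SD of 3 libraries. In the first 11 panels the treated and untreated libraries do not overlap in either genotype; Acacb is higher with cytokines in bKO-labelled islets and lower in controls, at 1.16 to 3.24 CPM.

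The carnitine shuttle was higher at its entry. Cpt1a, the outer-membrane carnitine palmitoyltransferase that sets the rate of import, rose to 114 ± 7.17 CPM with cytokines in bKO-labelled islets, against 69.0 ± 6.57 CPM untreated (SD, n = 3; log2 0.73, SE 0.079, edgeR adjusted p = 9.45e-06). In controls it rose to 117 ± 1.52 CPM, against 72.7 ± 4.29 CPM untreated (log2 0.69, SE 0.078, adjusted p = 1.65e-05). Slc25a20, the carrier across the inner membrane, rose by 0.59 in bKO-labelled islets and 0.48 in controls. Cpt2, which returns the fatty acid to coenzyme A inside, was not called (-0.072, adjusted p = 0.581, and 0.099, adjusted p = 0.45), though in controls it was called higher without replicate 2 of the treated bKO-labelled islets (0.17, adjusted p = 0.0159).

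Beta oxidation split by enzyme. Acadl (chr1:66830839-66863277), the long-chain acyl-CoA dehydrogenase, had 120.2, 157 and 131 CPM in cytokine-treated bKO-labelled islets, against 61.2, 53.7 and 61.8 CPM in untreated bKO-labelled islets. Cytokine-treated controls had 109, 108 and 116 CPM, against 62.6, 60.4 and 64.3 CPM in untreated controls. All treated libraries were above all untreated ones, and each treated bKO-labelled library was above each treated control. The log2 fold change was 1.21 (SE 0.096, edgeR adjusted p = 8.53e-07) in bKO-labelled islets and 0.83 (SE 0.095, adjusted p = 1.7e-05) in controls. The very-long-chain dehydrogenase Acadvl rose as well (0.41 in bKO-labelled islets and 0.50 in controls), as did Hadha and Hadhb, the subunits of the mitochondrial trifunctional protein, which lie head to head on chromosome 5: Hadha by 0.51 and 0.56, Hadhb by 0.30 and 0.43. In bKO-labelled islets the Hadhb call (adjusted p = 0.022) was lost without replicates 1 or 3 of the treated or replicates 1 or 2 of the untreated group (adjusted p 0.0586 to 0.0955), with no filter on low counts (0.0519) and with the compared groups only (0.0575).

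Hadh, Acadm and Ehhadh fell in both genotypes. Hadh had 88.8, 68.1 and 87.5 CPM in cytokine-treated bKO-labelled islets, against 209, 244 and 247 CPM in untreated bKO-labelled islets. In controls Hadh had 112, 109 and 103 CPM with cytokines, against 317, 257 and 258 CPM untreated. Treated libraries lay far below untreated ones, and within each treatment every bKO-labelled library was below every control. Hadh fell, at log2 -1.52 (SE 0.12, edgeR adjusted p = 8.4e-07) in bKO-labelled islets and -1.36 (SE 0.12, adjusted p = 2.08e-06) in controls. Acadm, the medium-chain dehydrogenase, fell in bKO-labelled islets (-0.46, adjusted p = 0.0284) and in controls (-0.75, adjusted p = 0.002). In bKO-labelled islets that call was lost without replicates 1 or 3 of the treated or of the untreated group (adjusted p 0.0631 to 0.103) and with the compared groups only (0.0517).

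Ehhadh, the bifunctional enzyme of peroxisomal beta oxidation and a known target of PPAR-alpha in rodent liver, had 6.40, 5.56 and 7.22 CPM in cytokine-treated bKO-labelled islets, against 12.9, 14.2 and 14.9 CPM in untreated bKO-labelled islets. Controls had 7.48, 8.24 and 8.34 CPM with cytokines, against 17.9, 15.7 and 15.6 CPM untreated. As with Hadh, the treated libraries were all lower, and the bKO-labelled libraries were below the controls within each treatment. The log2 fold change was -1.13 (SE 0.11, edgeR adjusted p = 5.28e-06) in bKO-labelled islets and -1.03 (SE 0.11, adjusted p = 1.1e-05) in controls. Ppara itself had 0.475 to 1.42 CPM over the 12 libraries and was not called (-0.77, adjusted p = 0.0672, in bKO-labelled islets and -0.70, adjusted p = 0.0844, in controls). Without replicate 2 of the untreated bKO-labelled islets Ppara was called lower in bKO-labelled islets (-1.01, adjusted p = 0.0266), and without replicate 1 of that group it was called lower in controls (-0.70, adjusted p = 0.0397). With library totals alone Ppara was called lower in either genotype (edgeR adjusted p = 0.0246 and 0.0305).

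The genotypes were compared within each treatment, which is the comparison the study's design sets up between bKO and control islets. None of the 39 genes was called. With cytokines the smallest edgeR adjusted p was 0.15, and 9 genes (23.1%) had an unadjusted p under 0.05, against 17.8% of all genes; 46 of all genes tested, or 0.232%, were called (0.141% higher and 0.0909% lower). Untreated, the smallest adjusted p was 0.546, and 1 gene (2.56%) had an unadjusted p under 0.05, against 5.55% of all genes; 15 of all genes, or 0.0758%, were called. DESeq2 also called none of the 39 in either comparison. Log2 differences of bKO-labelled over control islets ran from -0.41 to 0.89 with cytokines and from -0.76 to 0.12 untreated, with a median SE of 0.113 and 0.116, and 35 and 38 of the 39 lay within 0.5 of 0. These tests do not show that the genotypes were alike.

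In the genes with the smallest p the groups did not overlap: these were 4 genes with cytokines and 3 untreated. With cytokines Hadh was at log2 -0.41 (SE 0.12, edgeR adjusted p = 0.15), Acadl at 0.29 (SE 0.094, adjusted p = 0.172), Ehhadh at -0.33 (SE 0.11, adjusted p = 0.192) and Acacb at 0.68 (SE 0.24, adjusted p = 0.192). Untreated, Acacb was at -0.76 (SE 0.23, adjusted p = 0.546), Hadh at -0.25 (SE 0.12, adjusted p = 0.918) and Ehhadh at -0.23 (SE 0.11, adjusted p = 0.94). Groups did not overlap for 7 of the 39 genes with cytokines (17.9%, against 17.7% of all genes) and for 9 untreated (23.1%, against 16.2%). Of these 9, 8 were lower in bKO-labelled islets: Acacb, Hadh, Ehhadh, Scd1, Gpam, Dgat1, Slc25a20 and Acadm. Agpat1 was higher. The acinar marker sum also differed between untreated genotypes, at 2143 to 3504 CPM in bKO-labelled islets and 4729 to 7668 CPM in controls, and its part in these values was not tested. With cytokines the beta cell markers differed between genotypes: 2 of 10 were called lower in bKO-labelled islets (Ucn3 at log2 -1.22 and G6pc2 at -1.08, both with an edgeR adjusted p of 0.0334), 8 had an unadjusted p under 0.05, and their median was -0.69, or -0.47 with 2 called when replicate 2 of the treated bKO-labelled islets was left out. Their part in the values of Hadh, Acadl, Ehhadh and Acacb was not tested.

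The difference of the cytokine responses, bKO-labelled minus control, was called for 0 of the 39 genes and for 0% of all genes by edgeR; 5 of the 39 (12.8%) had an unadjusted p under 0.05, against 10.9% of all genes. Acacb had the largest difference and the smallest p, log2 1.44 (SE 0.33, adjusted p = 0.251). For this difference DESeq2 called 100 genes higher and 86 lower of all 19800. Of the 39 it called Acacb (1.42, adjusted p = 0.00966) and no other. Over all alternatives the difference for Acacb ranged from 1.26 to 1.57. Next in size were Scd1 (1.05, SE 0.42, adjusted p = 0.415), Scd2 (1.00, SE 0.65, adjusted p = 0.571) and Fads2 (0.66, SE 0.51, adjusted p = 0.62), in which replicate 2 of the treated groups stood apart. Next by p were Acads, the short-chain dehydrogenase (0.50, SE 0.18, adjusted p = 0.387), and Acadl (0.38, SE 0.13, adjusted p = 0.387). Acads had 18.8, 26.6 and 22.0 CPM in cytokine-treated bKO-labelled islets, against 22.6, 21.5 and 20.6 CPM in untreated bKO-labelled islets, which overlap. Treated controls had 19.0, 16.1 and 19.4 CPM, against 25.1, 22.2 and 26.7 CPM in untreated controls, with every treated library lower (log2 -0.44, adjusted p = 0.00914). Of the 10 acinar markers 5 had an unadjusted p under 0.05 for this difference (median 1.32), and their part in it was not tested.

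Genes around the 39 were described from 6 further lists, of which no gene was called between genotypes or in the difference of responses by edgeR. Their shares called with cytokines are to be read against 28.8% higher and 33.6% lower of all genes in bKO-labelled islets, and 26.8% and 33.9% in controls. Of 18 transcriptional regulators of lipid metabolism, 5 rose and 9 fell with cytokines in bKO-labelled islets (27.8% and 50%), and 6 rose and 6 fell in controls (33.3% each). Srebf1, which encodes the SREBP-1 factor that drives fatty acid synthesis genes, fell to 108 ± 6.09 CPM in bKO-labelled islets, against 190.4 ± 3.20 CPM untreated (SD, n = 3; log2 -0.82, SE 0.074), and to 108 ± 8.92 CPM in controls, against 181 ± 8.86 CPM untreated (-0.74, SE 0.074). Mlxipl, the glucose-responsive factor ChREBP, was at -2.06 in bKO-labelled islets and -1.17 in controls, and Hnf4a, a nuclear receptor, at -0.74 and -1.10, all called. For Mlxipl, replicate 2 was at 0.518 times the mean of the other 2 libraries in treated bKO-labelled islets. In treated controls it was at 1.34 times that mean. Of 13 genes that supply acetyl-CoA, citrate and NADPH, 5 rose and 5 fell in either genotype (38.5% each). Acly, which makes cytosolic acetyl-CoA from citrate, fell to 936 ± 219 CPM in bKO-labelled islets, against 3211 ± 72.8 CPM untreated, and to 1231 ± 66.7 CPM in controls, against 3428 ± 113 CPM untreated. Thrsp and Mid1ip1, partners in lipogenesis, fell too, at -3.46 and -0.72 in bKO-labelled islets and -2.26 and -0.48 in controls, with Thrsp under 2 CPM in every library.

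For uptake, binding and thioesterases, 7 of 15 genes rose and 7 fell in bKO-labelled islets (46.7% each), and 5 rose and 6 fell in controls (33.3% and 40%). Cd36, a fatty acid translocase that macrophages and endothelium also carry, rose by 2.02 in bKO-labelled islets and 2.07 in controls, and the binding protein Fabp5 by 1.43 and 1.43. Ffar1, the beta cell receptor through which fatty acids potentiate insulin secretion, fell to 14.4 ± 5.61 CPM in bKO-labelled islets, against 124 ± 1.97 CPM untreated, and to 26.6 ± 1.59 CPM in controls, against 137 ± 13.3 CPM untreated, where 7 of 10 beta cell markers fell as well. Of 21 other tested glycerolipid and droplet genes, 9 rose and 5 fell in bKO-labelled islets (42.9% and 23.8%), and 7 rose and 7 fell in controls (33.3% each). Gpat3, a glycerol phosphate acyltransferase of the endoplasmic reticulum, rose by 2.34 in bKO-labelled islets and 1.99 in controls, where its mitochondrial counterpart Gpam fell. The droplet-forming genes Fitm2 (-1.003 in bKO-labelled islets and -0.48) and Bscl2, or seipin (-0.63 and -0.64), fell.

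Of 19 other fatty acid oxidation genes, 3 rose and 5 fell in bKO-labelled islets (15.8% and 26.3%), both shares below those of all genes, and 2 rose and 11 fell in controls (10.5% and 57.9%). Echs1, the short-chain enoyl-CoA hydratase, rose by 0.97 in bKO-labelled islets and 0.82 in controls. Acat1, the mitochondrial thiolase of ketone bodies, fell (-1.54 in bKO-labelled islets and -1.74 in controls), as did Pdk4, a kinase that turns off pyruvate dehydrogenase (-1.90 and -2.64). Of 12 peroxisomal genes, 2 rose and 8 fell in either genotype (16.7% and 66.7%). Abcd3, an acyl-CoA transporter of the peroxisomal membrane, fell to 61.5 ± 5.48 CPM in bKO-labelled islets, against 197 ± 15.1 CPM untreated, and to 66.2 ± 4.57 CPM in controls, against 217 ± 18.3 CPM untreated. Abcd2, another such transporter, was at -2.20 in bKO-labelled islets and -3.06 in controls, both called lower.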

How the data were processed

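Total RNA of mouse islets was sequenced on an Illumina NovaSeq, per the labels' protocols. Counts are the authors' deposited raw whole-number read counts per gene; FastQC 0.11.7, cutadapt 1.16, STAR 2.5.2a, featureCounts 1.6.2, DESeq2 1.30.0 and the GRCm38 build are named in the submitters' processing notes. For the annotation release and the strand setting, nothing is given in the sources used here. Genes that overlap or have a close copy may therefore share reads. A filtered table of 26532 genes with the same counts and the deposited size factors were not used, and 0 sample columns were left unmapped.

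Genes kept by filterByExpr (19800) entered edgeR 4.0.16 (R 4.3.3) with TMM scaling. Its quasi-likelihood test used 1 coefficient per group, fitted to 12 libraries, and p-values were adjusted by Benjamini-Hochberg over the genes tested, with calls at 0.05. The fit was also run on simulated counts. Their libraries were drawn independently, so that run cannot check p-values where libraries share a mouse. CPM uses TMM-scaled totals, and CPM per kb the exon length of GENCODE M21 (GRCm38). Promoters are RefSeq windows on GRCm38.p6. Replicates are not copies: their smallest chi-square per degree of freedom was 15. Counts per gene limit precision most in Ppara and Acacb. Alternatives were other scalings, filters, tools (DESeq2 1.42.0, limma 3.58.1), a replicate block, a stricter threshold and leaving out each library.

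The 39 genes, the marker lists and the pathway lists were chosen with earlier results of these data known. Values of every library are given for genes called at 2-fold or more with cytokines or called in opposite directions. Where fewer than 3 of the 39 were called, the 3 with the smallest p are given, and of each pathway list the 3 genes with the smallest adjusted p, except 1 that is not reported here. Ptpn2, Ins1 and Ins2 are always given.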

Additional observations from a re-analysis of the deposited data

How the results depend on the processing

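Of the 39 genes, the number higher with cytokines stayed within 1.5 times of 18 in either genotype under every alternative run, from 13 (library totals) to 21 (DESeq2) in bKO-labelled islets and from 12 (library totals) to 19 (compared groups only) in controls. The number lower in bKO-labelled islets, 8, was 13 with library totals and ranged from 7 to 13 with 1 library left out, the 13 being without replicate 2 of the treated group; the number higher ranged from 17 to 20. In controls leaving out 1 library gave 18 to 19 higher and 10 to 16 lower. DESeq2 size factors gave 20 higher and 8 lower in bKO-labelled islets and 18 higher and 10 lower in controls, and moved the median of all genes by 0.072 and 0.090. Between genotypes no alternative called any of the 39. Counts over all genes were less stable: DESeq2 called 296 higher and 409 lower with cytokines (edgeR 28 and 18), 92 and 36 untreated (15 and 0) and 100 and 86 for the difference (0 and 0). With the compared groups only, 0 and 0 were called with cytokines and 91 and 30 untreated; with no filter, 63 and 127 and then 29 and 3; and with the replicate block or a threshold of 0.01, 5 and 2 with cytokines. With 1 library left out they ranged from 2 to 191 higher and 2 to 253 lower with cytokines, and from 12 to 53 higher and 0 to 6 lower untreated. For the 39, DESeq2 called 1 gene, Acacb, for the difference; the cause was not tested.

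Same-numbered replicates of different groups were correlated on each gene's log2 deviation from its group mean, not on levels. These correlations were -0.68 to 0.27, with no pair of groups above 0.1 in all 3, so the numbers gave no sign of pairing. Libraries of different genotypes, which share no mouse, reached 0.62 (replicate 1 of treated bKO-labelled islets with replicate 2 of treated controls). A shared mouse under the same number is therefore not excluded. A replicate block gave 18 higher and 8 lower in bKO-labelled islets and 18 higher and 11 lower in controls (without Acaca and Fads1), and a block within genotype 18 higher and 9 lower, and 18 higher and 14 lower (without Acacb; with Scd2 and Elovl6).

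In bKO-labelled islets Agpat1, called higher, was at -0.0045 with library totals. Other changes of sign were in genes not called in the fit described above. Without replicate 2 of the treated bKO-labelled islets, Scd2 and Fads2 turned negative and were called lower (edgeR adjusted p = 0.0202 and 0.0432). With library totals Scd2 was at -0.075, Fads2 at -0.17, Lpin1 at -0.056, Lipe at -0.048 and Acads at -0.17. Cpt2 and Elovl5 were at 0.0044 and 0.019 with DESeq2 size factors and 0.0041 and 0.018 with DESeq2. Scd2 and Fads2 were at -0.17 and -0.12 with limma-voom and -0.19 and -0.15 with the block within genotype, and Fads2 at -0.0060 with the replicate block. With 1 library left out, log2 fold changes ranged from -0.023 to 0.17 for Acads, -0.16 to 0.13 for Cpt2, -0.085 to 0.030 for Elovl5, -0.56 to 0.34 for Fads2, -0.11 to 0.67 for Scd1 and -0.75 to 0.48 for Scd2. In controls Acsl3, Lipe and Cpt2 were at -0.013, -0.16 and -0.13 with library totals, and Lipe ranged from -0.012 to 0.14 with 1 library left out.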
